A study of Mus musculus with 8 samples.

Results

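The genes described here encode the enzymes that make, degrade and read out the cyclic nucleotides cAMP and cGMP. They were chosen by name: every row of the count tables called Adcy, Pde, Prkac, Prkar, Prkg, Gucy1 or Gucy2 with its family number or letter, provided that it had at least 50 counts summed over all libraries. Of the 33885 gene symbols, 50 matched and 49 passed. The one left out was Pde2a, a phosphodiesterase with 15 counts in all; 64.3% of its exon bases also belong to Gm45837 on the same strand, which had 1399 counts, so no level can be given for Pde2a. Just above the limit was Gucy2d with 74 counts, and the most abundant was Pde10a with 1286045.

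Total RNA had been sequenced from brain tissue of adult male C57Bl6J mice, in 4 groups of 2 libraries. Nucleus accumbens (NAc, the ventral striatum) came from mice conditioned to a place with intraperitoneal cocaine at 7.5 mg/kg and from mice left in the home cage. Medial prefrontal cortex (mPFC) came from mice that had been defeated by aggressive male CD1 mice and from home-cage mice, and tissue was taken 15 min after the experience. The titles of all mPFC libraries, home-cage and defeat alike, carry the genotype label WT (wild type), and the NAc titles name no genotype. Neither the labels nor the design text state that replicates are separate animals, whether tissue was pooled, or how often conditioning or defeat was given. The p-values therefore cover the spread among these libraries, which may be technical. Cocaine was given in NAc only and defeat in mPFC only.

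Adenylyl cyclases make cAMP and guanylyl cyclases make cGMP. Phosphodiesterases hydrolyse one or both, and each family has its own substrate preference and regulation. The main readers are protein kinase A (PKA), whose regulatory subunits release the catalytic subunits when they bind cAMP, and the cGMP-dependent kinases. In striatal projection neurons, dopamine and adenosine receptors act through the olfactory-type stimulatory G protein on adenylyl cyclase 5, and PDE10A and PDE1B are known as abundant striatal phosphodiesterases. PKA also phosphorylates CREB, a transcription factor that binds the cAMP response element (CRE).

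By role, the 49 genes are 9 transmembrane adenylyl cyclases, 1 soluble adenylyl cyclase (Adcy10), 4 soluble guanylyl cyclase subunits, 5 receptor guanylyl cyclases, 8 cAMP-specific, 7 dual-specificity and 5 cGMP-specific phosphodiesterases, 2 PKA catalytic subunits, 4 PKA regulatory subunits and 2 cGMP-dependent kinases. The other 2 carry the name but another role: PDE6D is a prenyl-binding carrier protein and PDE12 an RNA-degrading enzyme of mitochondria.

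For Pde10a, Adcy5 and Pde1b, the marker genes of this gene set, the 250 bases before the most upstream RefSeq start (GRCm38.p6, forward strand) are shown. They lie at chr17:8801495-8801744, chr16:35154614-35154863 and chr15:103502784-103503033. The GENCODE model of Pde10a begins farther upstream, at 8525372. The fourth sequence, at chr11:109650889-109650918, is the stretch of Prkar1a that holds the 8-letter CRE, given in capitals.
Pde10a: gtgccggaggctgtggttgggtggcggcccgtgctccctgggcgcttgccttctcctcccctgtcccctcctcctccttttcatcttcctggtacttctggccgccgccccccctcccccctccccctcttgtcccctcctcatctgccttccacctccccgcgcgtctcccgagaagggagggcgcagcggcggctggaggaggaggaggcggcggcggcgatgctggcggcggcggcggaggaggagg
Adcy5: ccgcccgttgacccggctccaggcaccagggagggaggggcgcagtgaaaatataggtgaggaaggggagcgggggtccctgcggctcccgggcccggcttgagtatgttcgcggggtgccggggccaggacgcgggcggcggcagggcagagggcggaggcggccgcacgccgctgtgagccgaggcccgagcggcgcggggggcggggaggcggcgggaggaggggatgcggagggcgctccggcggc
Pde1b: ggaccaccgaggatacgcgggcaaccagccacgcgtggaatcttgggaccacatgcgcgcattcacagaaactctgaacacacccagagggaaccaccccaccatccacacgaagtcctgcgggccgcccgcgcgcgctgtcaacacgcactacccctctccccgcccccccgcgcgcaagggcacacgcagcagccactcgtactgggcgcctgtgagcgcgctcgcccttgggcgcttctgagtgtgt
Prkar1a: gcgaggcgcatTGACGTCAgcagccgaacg

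The 3 longer sequences are GC-rich (72.8%, 78.0% and 67.2% G or C) and hold neither the CRE, TGACGTCA, nor its core, TGACG, on either strand. RefSeq windows (300 bases, 250 before and 50 after a start) were found for 39 of the 49 genes. The full CRE was in the windows of 1 of these 39, Prkar1a (2.56%), against 2.03% of all 27025 symbols. The core, which the full CRE contains, was in windows of 15 of the 39 (38.5%) against 23% of all symbols; per window the shares were 22.7% and 20.8%, since the members have more windows each. The 15 are Prkaca, Prkacb, Prkar1a (a gene with 6 windows), Prkar1b and Prkar2a, and Adcy7, Adcy9, Gucy1a2, Gucy1b1, Gucy2e, Pde1a, Pde4a, Pde4b, Pde8a and Pde8b. The remaining PKA subunit gene, Prkar2b, had no core in its windows. A match describes the letters of the window and is not a measured binding site.

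The libraries held 111901829 to 179479978 counts. Levels are given below in CPM, the count scaled to the TMM-adjusted library total. Of all counts, the 49 genes took 1.10% in cocaine library 1 and 0.846% in cocaine library 2, 1.14% and 0.802% in NAc home-cage libraries 1 and 2, and 0.767% to 0.791% in mPFC. The NAc libraries numbered 1 therefore stood apart from those numbered 2 within each group, and markers of other cells moved with this. The summed level of 14 striatal neuron markers (none at 0) was 3093 CPM in cocaine library 1 and 1080 CPM in cocaine library 2, 3703 and 949 CPM in the home-cage pair of NAc, and 161 to 171 CPM in mPFC. The sum of 12 cortical glutamatergic markers (Sla at 0 in every library) ran the other way, at 1260 and 1696 CPM, 1099 and 1814 CPM, and 2550 to 2765 CPM. Not every gene in it did. Of 11 tested in the exposed mice, 8 were called lower in NAc and 1 higher. Rorb had 91.8 to 132 CPM in NAc and 82.1 to 85.4 CPM in mPFC. Cux2 had 70.2 and 81.0 CPM after cocaine but 77.0 and 60.5 CPM in home-cage NAc libraries 1 and 2. The 10 oligodendrocyte markers summed to 1408 CPM in NAc home-cage library 2, 2356 to 2669 CPM in the other NAc libraries and 1174 to 1570 CPM in mPFC. The 9 genes listed as interneuron markers (none at 0) summed to 1043 and 769 CPM after cocaine, 1158 and 836 CPM in home-cage NAc and 593 to 624 CPM in mPFC. They include the general GABA neuron genes Gad1, Gad2 and Slc32a1, so their sum does not measure interneurons alone. The 4 choroid plexus markers (none at 0) summed to 16.5 and 8.90 CPM, 23.2 and 6.62 CPM, and 1.97 to 3.49 CPM. Both sums were thus higher in the NAc libraries numbered 1, as for the striatal markers, but not every gene in them was. Gad1 had 276 and 197 CPM after cocaine and 306 and 239 CPM in home-cage NAc. Sst ran the other way, at 147 and 179 CPM and 136 and 188 CPM. Pvalb and Calb2 were also higher in the libraries numbered 2, and Lhx6 was nearly level. Ttr, a choroid plexus marker, had 0.461 and 1.65 CPM after cocaine and 4.13 and 1.01 CPM in the home cage. The 8 astrocyte markers (none at 0) summed to 2507 to 2760 CPM in NAc and 3719 to 3996 CPM in mPFC, without such a split between the NAc libraries. The part of tissue composition in the differences below was not tested; in bulk tissue, fewer cells of a type and less RNA per cell cannot be told apart.

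In home-cage mice, 7 of the 49 genes were higher in NAc than in mPFC and 3 were lower at an adjusted p under 0.05 (edgeR quasi-likelihood test, Benjamini-Hochberg over 18300 genes). The background was 7.01% of all genes tested higher and 5.35% lower. Phosphodiesterases were 6 of the 7 higher genes (Pde1c, Pde7b, Pde1b, Pde9a, Pde11a and Pde3a), with Adcy5 the other, and the 3 lower genes were Pde4d, Adcy7 and Adcy10. The median absolute log2 fold change was 0.49 over the members and 0.26 over all genes. The count of members called depended on single libraries, each time with the lone library of a group assumed to vary like the other group: it was 0 without either mPFC home-cage library, 27 without NAc home-cage library 1 and 35 without NAc home-cage library 2.

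The second regional comparison, cocaine NAc against defeat mPFC, used libraries that the first did not; there region and experience cannot be told apart. Of 48 members tested, 13 were higher in NAc, against a background of 19.2%, and 10 were lower, against 17.1% (edgeR, adjusted p under 0.05, 18362 genes). The count of 23 became 3 and 7 without defeat library 1 or 2, 30 without cocaine library 1 and 36 without cocaine library 2. Of the 48 members tested in both comparisons, 46 had the same sign. No share over all genes stands beside this count or the next, so neither can be read as particular to the members. Called in both and in the same direction were 9 genes, out of 10 called in the home cage and 23 (39.1%) called in the exposed mice; Adcy10 was called in the home cage only.

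**Figure D1:**
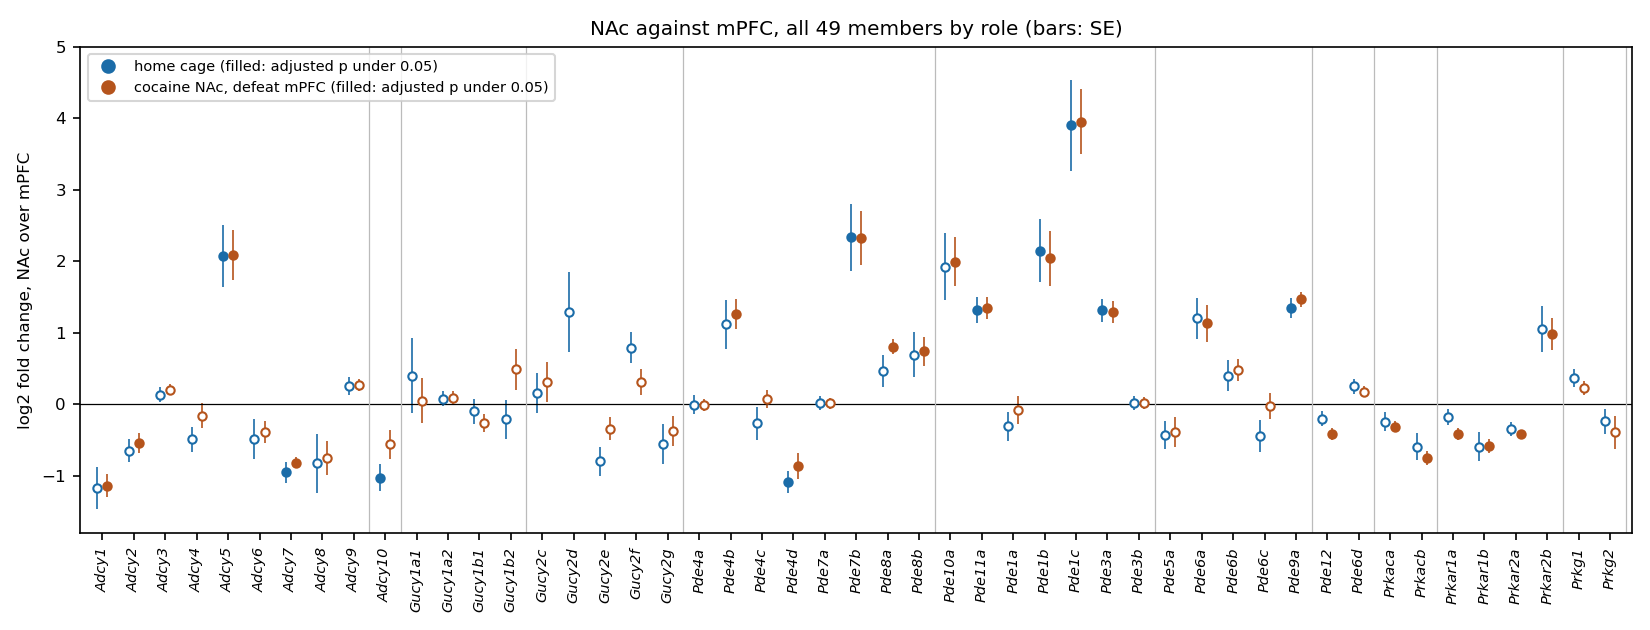
Log2 fold change of NAc over mPFC for each member tested (y axis, bars are SE), ordered by role along the x axis with grey lines between roles; blue is the home-cage comparison, orange the exposed one, and filled points have an adjusted p under 0.05. Pde1c lies highest, at 3.90 and 3.96, and the PKA subunits other than Prkar2b lie below 0 in both comparisons.

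Among the adenylyl cyclases, Adcy5, the main striatal isoform, had 1236 CPM in cocaine library 1 and 571 CPM in cocaine library 2, 1378 and 551 CPM in the home-cage pair of NAc, and 207 to 244 CPM in the 4 mPFC libraries. Every NAc library lay above every mPFC library, and the replicates of each NAc group differed more than 2-fold. The log2 fold change was 2.07 (SE 0.43, adjusted p = 0.0402) in the home cage and 2.09 (SE 0.35, adjusted p = 0.00949) in the exposed mice by edgeR. With one home-cage NAc library at a time, the fold change was 2.41 (library 2) or 6.003 (library 1).

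The calcium-stimulated cyclase gene Adcy1 had the opposite order, with 435, 596, 385 and 699 CPM in the NAc libraries (cocaine 1 and 2, then home cage 1 and 2) and 1122 to 1229 CPM in mPFC. Its groups did not overlap, but the home-cage difference of −1.17 (SE 0.29) missed the threshold (edgeR adjusted p = 0.0611); in the exposed mice −1.14 (SE 0.16) passed it (adjusted p = 0.00592). Adcy2 was likewise separated, at 250 to 332 CPM in NAc and 418 to 453 CPM in mPFC, with an adjusted p of 0.0573 in the home cage and 0.0326 in the exposed mice. Adcy7 was a low gene (6.37 to 7.84 CPM against 13.0 to 14.5 CPM) but a steady one, lower in both comparisons at −0.96 (SE 0.15) and −0.82 (SE 0.08). The bicarbonate-sensitive soluble cyclase Adcy10 was lower in the home cage (−1.03, SE 0.19) and not called in the exposed mice (−0.56, SE 0.20, edgeR adjusted p = 0.0817). Adcy3, Adcy4, Adcy6, Adcy8 and Adcy9 passed in neither comparison; 22.1% of the exon bases of Adcy3 are shared with Cenpo on the opposite strand, and whether strand was used in counting is not given in the sources used here.

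None of the guanylyl cyclase genes tested passed the test in either region comparison. The soluble subunits Gucy1a2 and Gucy1b1, which bind nitric oxide as a heterodimer, had 148 to 172 and 108 to 159 CPM over the 8 libraries, with the regions overlapping. Gucy1a1 had 120 and 57.5 CPM after cocaine, 173 and 52.0 CPM in home-cage NAc and 82.5 to 88.7 CPM in mPFC. Both mPFC groups thus lay between the NAc libraries of number 1 and number 2. The receptor cyclases were sparse: Gucy2g, the most abundant, stayed under 9.5 CPM in every library, and Gucy2c, Gucy2d, Gucy2e and Gucy2f ranged from 0.0221 to 2.51 CPM.

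The dual-specificity phosphodiesterases held the largest regional differences, with 4 of 7 higher in NAc in the home cage (7.01% of all genes were) and 5 of 7 in the exposed mice (19.2% of all genes), and none lower. Pde10a, the most abundant member by counts, had 2344 and 1128 CPM after cocaine, 2508 and 921 CPM in home-cage NAc, 403 and 499 CPM in the mPFC home-cage libraries, and 412 and 460 CPM after defeat. All NAc libraries were above all mPFC libraries, while the number 1 libraries were more than 2 times the number 2 libraries. The home-cage difference of 1.92 (SE 0.47) missed the threshold (edgeR adjusted p = 0.0589), and the exposed difference of 1.99 (SE 0.34) passed it (adjusted p = 0.00973). Without either NAc home-cage library the home-cage difference passed, at a 2.05-fold level with library 2 alone and 5.54-fold with library 1 alone.

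Pde1b, a calmodulin-activated enzyme, had 502 and 217 CPM after cocaine, 583 and 225 CPM in the NAc home cage, and 83.7 to 92.6 CPM in mPFC. It was higher in NAc by 2.15 (SE 0.44, edgeR adjusted p = 0.0392) and 2.04 (SE 0.38, adjusted p = 0.0124) on the log2 scale. Its relative Pde1c had the widest gap of all members: 322, 129, 332 and 90.7 CPM in NAc against 13.3 to 15.4 CPM in mPFC, a 15.0-fold and a 15.5-fold difference. The third gene of this family, Pde1a, did not follow them. It had 395.7 to 664.8 CPM in NAc and 559 to 628 CPM in mPFC, and its groups overlapped.

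Pde3a and Pde11a were low genes, each about 2.5-fold higher in NAc in both comparisons (2.48 and 2.45 for Pde3a, 2.49 and 2.54 for Pde11a). Pde11a had 14.9 to 20.6 CPM in NAc and 6.63 to 7.80 CPM in mPFC. Within NAc its number 2 libraries were the higher ones in both groups, as were those of Pde1a, and unlike those of Pde10a, Pde1b and Pde1c. The cGMP-inhibited Pde3b was level between regions, at 38.6 to 44.2 CPM in all 8 libraries.

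**Figure D2:**
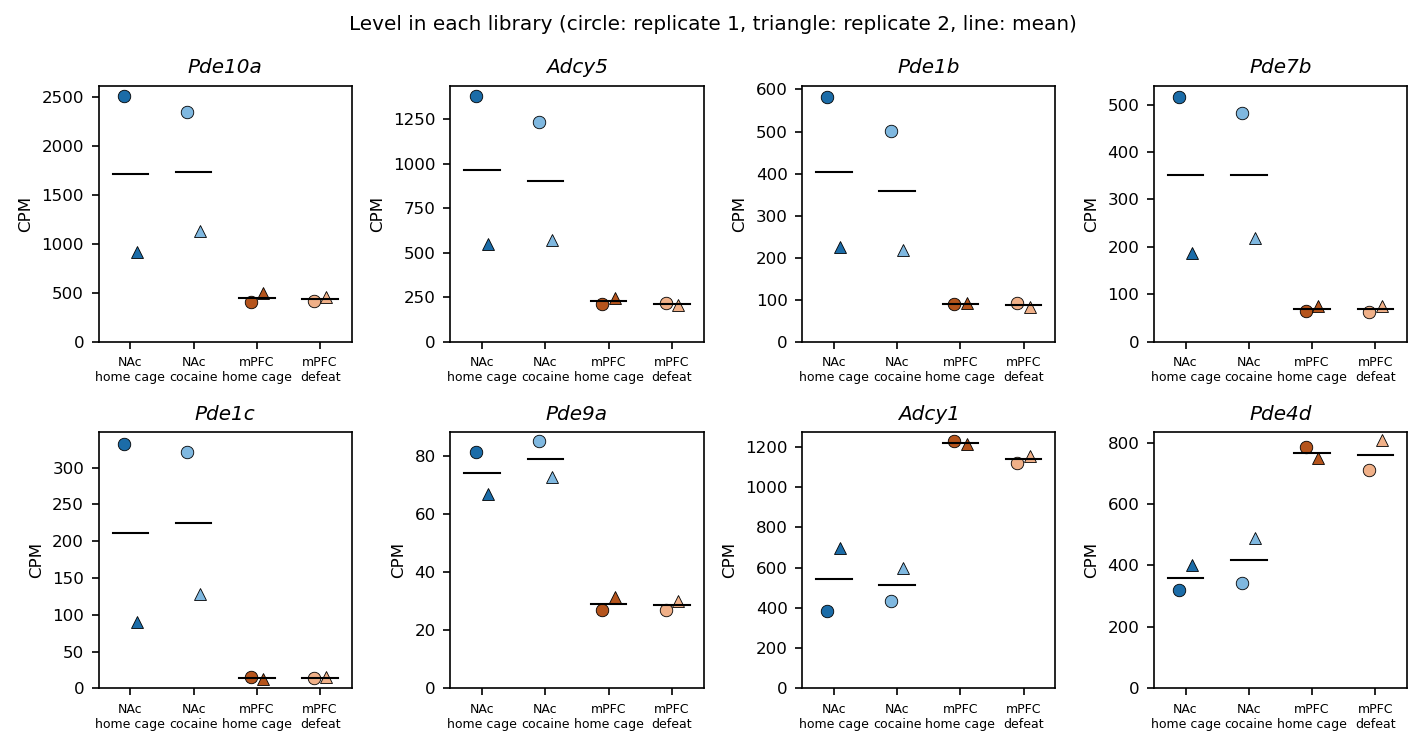
CPM (y axis, from 0) of 8 members in each library by group (x axis); circles are replicate 1, triangles replicate 2 and lines the group mean. For Pde10a, Adcy5, Pde1b, Pde7b and Pde1c the NAc circles lie more than 2 times as high as the NAc triangles, Pde9a is tighter, and Adcy1 and Pde4d lie lower in NAc than in mPFC.

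Among the 8 cAMP-specific phosphodiesterases the regions differed in opposite directions. Pde7b had 483, 218, 516 and 188 CPM in NAc and 63.6 to 76.5 CPM in mPFC, and was higher in NAc by 2.33 in each comparison (SE 0.47 and 0.37, edgeR adjusted p = 0.0377 and 0.00817). Pde4d had 343, 489, 319 and 400.0 CPM in NAc against 711 to 808 CPM in mPFC, and was lower in NAc by −1.09 (SE 0.15, adjusted p = 0.0161) and −0.87 (SE 0.18, adjusted p = 0.0180). Its paralog Pde4b lay the other way, at 1292, 838, 1331 and 643 CPM in NAc and 426 to 467 CPM in mPFC. It passed only in the exposed mice (1.26, SE 0.21, edgeR adjusted p = 0.00934, against 1.12, SE 0.34, adjusted p = 0.0924 in the home cage). Whether the comparisons differ is the same contrast as the difference between the responses given below. There 0 of 8 cAMP-specific phosphodiesterases were called, which does not show that the comparisons were alike. Pde8a and Pde8b were also called higher in the exposed mice alone, at 0.81 (SE 0.11) and 0.74 (SE 0.20). Pde4a and Pde7a showed no regional difference past the test, with log2 differences of −0.01 to 0.02.

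Of the cGMP-specific phosphodiesterases, Pde9a, the high-affinity cGMP enzyme, gave the smallest adjusted p of all members in both comparisons. It had 85.3 and 72.8 CPM after cocaine, 81.5 and 67.0 CPM in the NAc home cage, and 27.0 to 31.5 CPM in mPFC. The log2 fold changes were 1.34 (SE 0.14, edgeR adjusted p = 0.00818) and 1.47 (SE 0.10, adjusted p = 0.00109), and the NAc libraries 1 and 2 differed by only 1.17-fold and 1.22-fold. Pde5a was not called in either comparison. The photoreceptor genes Pde6a, Pde6b and Pde6c had 0.651 to 4.21 CPM; Pde6a was higher in NAc in the exposed mice (1.13, SE 0.26, adjusted p = 0.0216) and not called in the home cage (1.20, SE 0.29, adjusted p = 0.0555).

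All 6 PKA subunit genes passed the test in the exposed mice, 1 higher and 5 lower in NAc, and none passed in the home cage. Over all genes, too, fewer were called in the home cage (7.01% higher and 5.35% lower) than in the exposed mice (19.2% and 17.1%). The catalytic genes were both lower in cocaine NAc than in defeat mPFC, Prkacb by −0.76 (SE 0.10, edgeR adjusted p = 0.00483) and Prkaca by −0.32 (SE 0.08, adjusted p = 0.0257). Prkacb had 200.3 to 284.7 CPM in NAc and 350 to 398 CPM in mPFC; Prkaca had 128 to 157 CPM and 168 to 182 CPM. Of the regulatory genes, Prkar1b (−0.59), Prkar2a (−0.42) and Prkar1a (−0.42) were lower in NAc, and Prkar2b was higher (0.98, SE 0.22, adjusted p = 0.0207). In the home cage the same 6 genes had the same signs, with adjusted p between 0.0694 and 0.344. Prkar2b, the type II beta subunit, had 144 and 88.8 CPM after cocaine, 166 and 81.4 CPM in the NAc home cage, and 58.4 to 60.6 CPM in mPFC, so it too was higher in the number 1 libraries. Prkg1, the widely expressed cGMP-dependent kinase, had 350 to 441 CPM in NAc and 307 to 327 CPM in mPFC; its groups did not overlap, but its adjusted p was 0.111 in the home cage and 0.116 in the exposed mice. Pde12 was lower in the exposed NAc (−0.41, SE 0.08) and Pde6d was called in neither comparison.

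Across all 8 libraries, 17 of the 49 members (34.7%) were above every mPFC library in every NAc library, where 24.2% of all 18783 genes tested were. Below every mPFC library in every NAc library were 15 members (30.6%) against 22.7% of all genes.

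Levels of different genes were compared per length, as CPM per kilobase of union exon. The transmembrane adenylyl cyclases together summed to 333, 273, 341 and 281 in NAc and to 279 to 303 in mPFC, so the sums overlapped. Their makeup did not: Adcy5 held 51.7% and 29.1% of the sum after cocaine, 56.3% and 27.3% in home-cage NAc, and 9.97% to 11.2% in mPFC. In mPFC, Adcy2 led with 35.5% to 35.9%, followed by Adcy1 with 31.8% to 33.2%. In both NAc libraries numbered 2, Adcy5 and Adcy2 were nearly level, at 29.1% and 28.9% after cocaine and 27.3% and 27.3% in the home cage.

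The cAMP and cGMP phosphodiesterases summed to 688, 496, 717 and 425 CPM per kilobase in NAc and to 328 to 358 in mPFC, with no overlap. Pde10a held 26.5%, 17.7%, 27.2% and 16.9% of this sum in NAc and 8.96% to 11.1% in mPFC. Pde1a led in mPFC with 26.7% to 29.8%, and led also in the NAc libraries numbered 2, with 22.3% and 22.0%. Pde4d held 3.71% to 8.22% in NAc and 17.9% to 18.8% in mPFC. This order depended on the length used. Per kilobase of the longest transcript, Pde4d led in every mPFC library, at 169 to 192 CPM against 131 to 148 for Pde1a. Pde4b then led in the NAc libraries numbered 2, at 195 CPM (cocaine) and 149 CPM (home cage) against 156 and 132 for Pde1a.

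The PKA catalytic sum was 83.1 to 86.0 CPM per kilobase in the 4 NAc libraries and 108 to 119 in mPFC. This sum did not follow the split between the NAc libraries that the cyclases and phosphodiesterases showed, but its genes differed between those libraries in opposite directions. In home-cage NAc libraries 1 and 2, Prkaca was at 51.5 and 63.2 CPM per kilobase and Prkacb at 32.45 and 22.8. The regulatory sum was 244 to 282 in NAc and 322 to 346 in mPFC, led everywhere by Prkar1b with 53.1% to 72.2%; Prkar2b held 15.8%, 9.62%, 18.6% and 7.91% in NAc and 4.62% to 5.08% in mPFC. Pde9a held 87.5% to 90.6% of the cGMP-specific phosphodiesterase sum in NAc and 74.6% to 76.6% in mPFC. With the length of the longest transcript in place of the union of exons, 19 of the 22 leading genes by role and region remained; the other 3 were within soluble guanylyl cyclase, where Gucy1a2 replaced Gucy1b1 in both regions, and PKA catalytic in mPFC, where Prkacb replaced Prkaca.

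**Figure D3:**
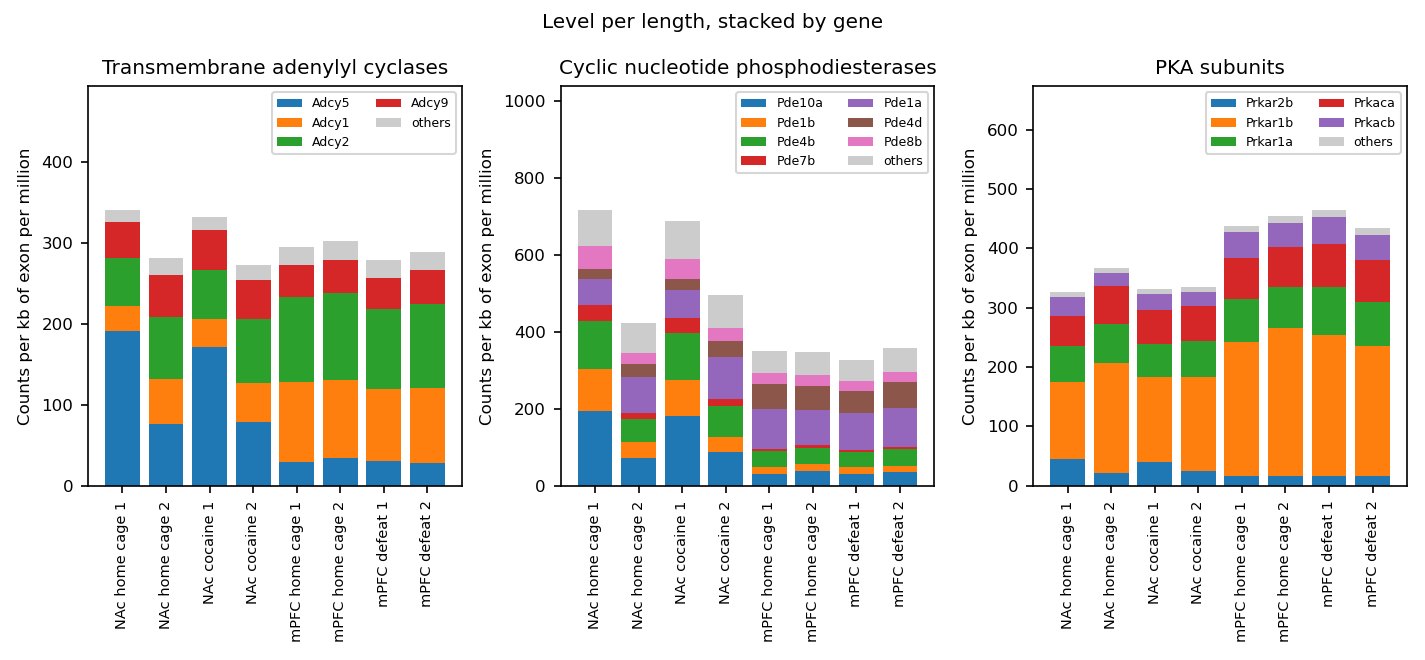
Level per length (CPM per kilobase of union exon, y axis from 0) stacked by gene in each library (x axis) for transmembrane adenylyl cyclases, the cAMP and cGMP phosphodiesterases, and PKA subunits. The cyclase sums overlap between regions while the Adcy5 portion is larger in NAc, and the phosphodiesterase sums of 425 to 717 in NAc lie above the 328 to 358 in mPFC.

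The NAc libraries of one group differed more for these genes than for most. The median absolute log2 ratio of library 1 to library 2 was 0.35 in the cocaine group and 0.44 in the home-cage group over the members, and 0.15 and 0.22 over all genes; in the mPFC groups it was 0.11 and 0.13 over the members and 0.12 and 0.10 over all genes. Pde1c, Pde7b, Pde1b, Adcy5, Gucy1a1 and Pde10a had library 1 over 2-fold above library 2 in both NAc groups, 12.2% of the members, where 2.13% of all genes differed over 2-fold in the same direction in both. The ratios were 2.50 and 3.66 for Pde1c (cocaine, home cage), 2.08 and 3.33 for Gucy1a1 and 2.08 and 2.72 for Pde10a. Adcy8 ran farthest the other way in the home-cage group, at 0.606 after cocaine and 0.393 in the home cage. The striatal and cortical marker sums given above moved the same way; their part in these ratios was not tested.

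Both NAc libraries numbered 2 lay between the number 1 libraries and mPFC for 13 of the 17 members above mPFC in every library (76.5%, against 46.3% of such genes overall) and for 11 of the 15 below it (73.3%, against 47%). The exceptions were Adcy9, Gucy2f, Pde11a and Pde6b among the higher genes and Gucy2e, Pde12, Prkacb and Prkar1a among the lower ones. Prkacb was 1.14-fold and 1.42-fold higher in the number 1 libraries although it was lower in NAc than in mPFC.

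**Figure D4:**
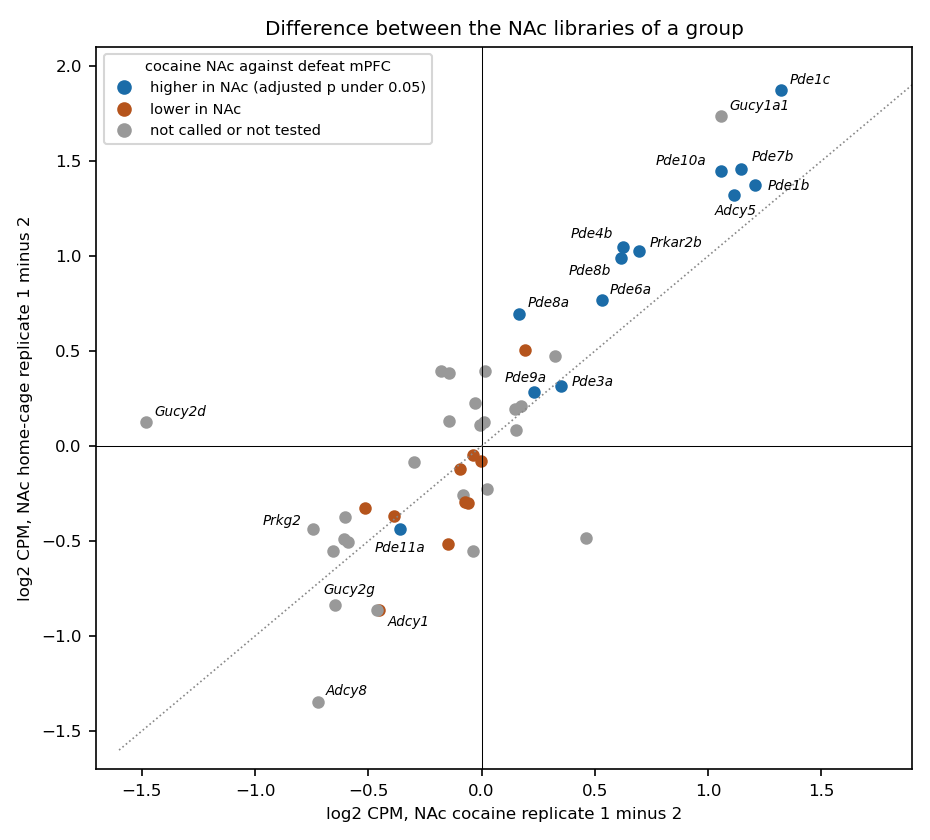
Log2 ratio of NAc library 1 to library 2 for each member in the cocaine group (x axis) and the home-cage group (y axis); colours give the call in cocaine NAc against defeat mPFC and the dotted line marks equal ratios. Pde1c, Gucy1a1, Pde7b, Pde10a, Pde1b and Adcy5 lie above 1 on both axes, and Adcy8, Adcy1 and Gucy2g lie below 0 on both.

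Genes that feed or follow the pathway were counted from lists; their counts stand beside 7.01% of all genes called higher and 5.35% lower in the home cage, and 19.2% and 17.1% in the exposed mice. Of 10 tested G protein subunits coupled to cyclases, 2 were higher in NAc and none lower in the home cage, and 2 were higher and 4 lower in the exposed mice. The 2 with the smallest p in the home cage were Gnal (1.81, SE 0.35) and Gng7 (2.90, SE 0.46). Gnal encodes the olfactory-type stimulatory alpha subunit that couples dopamine D1 receptors to adenylyl cyclase 5, and Gng7 its partner gamma subunit. Gng7 had 757, 333, 890.0 and 338 CPM in NAc and 75.1 to 84.3 CPM in mPFC, so that, as for Adcy5, every NAc library was above every mPFC library and the number 1 libraries were over 2-fold above the number 2 libraries. Of 14 tested PKA and PKG substrates, 1 was higher and none lower in the home cage, and 3 were higher and 3 lower in the exposed mice. The higher gene was Ppp1r1b (DARPP-32, a phosphatase inhibitor when phosphorylated by PKA), at 3.01 (SE 0.52) in the home cage; it is also one of the 14 striatal markers.

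Of 16 tested PKA inhibitors and anchoring proteins, 1 was higher and 2 lower in the home cage, and 6 and 3 in the exposed mice, where 19.2% and 17.1% of all genes were (7.01% and 5.35% in the home cage). Pkig, a peptide inhibitor of the PKA catalytic subunit, had 111 to 116 CPM in NAc and 67.6 to 75.9 CPM in mPFC (home cage 0.70, SE 0.10, edgeR adjusted p = 0.0170). The anchoring gene Akap7 was lower, at 33.0 to 36.3 CPM against 48.4 to 51.9 CPM (−0.61, SE 0.09, adjusted p = 0.0186). The replicates of NAc differed little for either gene. Of 15 tested other effectors of cyclic nucleotides, Hcn4, a cyclic nucleotide-gated pacemaker channel, was higher in the home cage (1.07, SE 0.20) and none was lower; in the exposed mice 1 was higher and 1 lower. Of 11 tested nitric oxide and natriuretic genes, Nos1ap, an adaptor of neuronal nitric oxide synthase, was lower in the home cage (−0.70, SE 0.11) and none was higher; in the exposed mice 2 were higher and 1 lower. Nos1 itself had 138 to 184 CPM in NAc and 92.6 to 108 CPM in mPFC, with adjusted p = 0.0640 in the home cage and 0.00353 in the exposed mice. Of 3 tested phosphodiesterase-associated genes outside the name rule (Pde6g and Pde6h, which encode small PDE6 subunits, and Pde4dip, which encodes a PDE4D-interacting protein), none was called in the home cage and 1 was higher in the exposed mice.

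After cocaine conditioning, 0 of 49 members passed in NAc by edgeR, where 0% of 18418 genes were called and no adjusted p fell below 0.99999. Before adjustment, 0 members and 211 genes had p under 0.05, and DESeq2 called 0 members and 4 genes. The log2 fold changes ran from −0.34 (Gucy1a1) to 0.39 (Adcy10), and the median absolute value was 0.093 against 0.083 over all genes. For the genes with the widest spread the estimate was loose: Pde10a was at 0.02 (SE 0.60), Adcy5 at −0.09 (SE 0.58) and Pde1b at −0.17 (SE 0.61). Each of these 3 differences changed sign in 2 of the 9 alternatives, with ranges of −0.60 to 0.92, −0.76 to 0.72 and −0.90 to 0.68. Adcy10 had 5.63 and 8.57 CPM after cocaine and 4.51 and 6.35 CPM in the home cage, which overlap. Pde8a had 53.5 and 47.6 CPM against 49.95 and 30.8 CPM, which overlap too (0.32, SE 0.25). Gucy1b2, a sparse gene, had 0.793 and 1.21 CPM after cocaine and 0.701 and 0.911 CPM in the home cage, again overlapping. Groups did not overlap for 5 members: Adcy4 and Gucy1a2 were higher in both cocaine libraries (background 11.8% of genes) and Gucy2f, Pde12 and Prkar1a lower (background 11.9%). Prkar1a had 243 and 259 CPM after cocaine and 260.0 and 283 CPM in the home cage (−0.11, SE 0.11). Prkg1, at −0.16 (SE 0.13), had the smallest unadjusted p among the members that were lower.

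After social defeat, 0 of the 48 members tested passed in mPFC (edgeR, adjusted p under 0.05; 0.704% of 18027 genes were called, 99 higher and 28 lower); DESeq2 called 0 members and 94 genes. Here the estimates were tight, with a median SE of 0.082 over the members against 0.23 for cocaine. At an unadjusted p under 0.05 there was 1 member and 1288 genes. That member was Gucy2e, a retinal guanylyl cyclase with 1.95 and 1.74 CPM after defeat and 2.51 and 2.22 CPM in the home cage (−0.36, SE 0.14, adjusted p = 0.469). The widest defeat difference of all members was that of Gucy1b2 (−0.37), which was not called. It had 0.601 and 0.832 CPM after defeat and 0.766 and 1.10 CPM in the home cage, which overlap. Prkar1a had 347 and 326 CPM after defeat and 316 and 299 CPM in the home cage (0.13, SE 0.08, edgeR adjusted p = 0.835). Pde10a (−0.05, SE 0.09), Adcy5 (−0.10, SE 0.08) and Pde1b (−0.06, SE 0.08) were estimated far more closely here than in NAc.

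Among the transmembrane adenylyl cyclases 8 of 9 had a negative difference after defeat, where 9206 of 18027 genes did. The 9 differences lay between −0.14 and 0.02 with a median SE of 0.080, and none passed the test. Groups did not overlap for 7 higher members (Gucy2f, Pde12, Pde5a, Pde6d, Prkaca, Prkar1a and Prkar2a; background 16.4%) and for 7 lower ones (Adcy1, Adcy2, Adcy6, Gucy2e, Gucy2g, Pde4c and Pde6c; background 17.8%), shares of 14.6% each. The median absolute log2 fold change was 0.056 over the members and 0.077 over all genes. In the lists of neighbouring genes, 1 of 10 tested G protein subunits and 1 of 14 tested PKA and PKG substrates were called after defeat. None was called in the other pathway lists (16, 13, 11 and 3 tested), and 0.704% of all genes were. Both called genes are named here after their values were seen. Gnai3, an inhibitory G protein alpha subunit, rose from 24.2 and 22.2 CPM to 30.5 and 31.0 CPM (0.41, SE 0.08, edgeR adjusted p = 0.00142). Crem, a cAMP-responsive transcription factor gene, rose from 14.9 and 14.1 CPM to 18.2 and 19.9 CPM (0.40, SE 0.09, adjusted p = 0.00602). In the same libraries the summed blood cell markers were 58.3 and 53.0 CPM after defeat and 19.5 and 19.7 CPM in the home cage; their part in these differences was not tested.

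The difference between the cocaine and the defeat response was tested over all 8 libraries, and 0 of 49 members were called, with 0% of 18783 genes called (edgeR; 0 members and 415 genes at an unadjusted p under 0.05). It was positive for 29 members and negative for 20 (9370 and 9413 over all genes), from −0.54 to 0.70, with a median SE of 0.27. The same contrast compares the exposed with the home-cage regional difference. A p that misses the threshold does not show that the responses, or the regional differences, were alike.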

How the data were processed

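Per the submitters' processing notes, reads were aligned to mm10 with STAR 2.7.1a and counted with featureCounts; which annotation, strand setting and treatment of multi-mapping reads were used was not given in the sources used here. The authors deposited raw counts per gene symbol in 2 tables, 1 per region, with the same 33885 symbols in the same order. Because the counts are not normalized, both tables were fitted together; region and table coincide. Gene models were GENCODE M21 (GRCm38), promoter windows RefSeq GRCm38.p6. Groups came from titles and treatment labels; mPFC replicates are numbered in accession order.

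Each comparison was fitted on its own 4 libraries with edgeR 4.0.16 (filterByExpr, TMM, glmQLFit, glmQLFTest, group means only; the difference between responses on all 8 libraries), Benjamini-Hochberg over all genes tested, threshold 0.05. SE was taken as the absolute log2 fold change over the root of the F statistic. Log2 CPM used a prior count of 2. The fit was also run on simulated counts with the same spread for every gene and no split between the NAc libraries. That run does not show how the fit performs on the NAc libraries used here. Alternatives were DESeq2 1.42.0, DESeq2 size factors, no low-count filter, all 8 libraries in the fit, each library left out, a replicate block, longest-transcript length and a minimum of 500 counts.

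The members, gene lists and tests were chosen with earlier results of these data known. Named genes were Pde10a, Adcy5 and Pde1b; up to 8 members called in each direction with the widest regional differences; the 4 smallest p per direction in each response; the leading gene per role and region; and up to 2 genes per pathway list with the smallest home-cage p. Other members called in a comparison are named to complete their role, after their values were seen.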

Additional observations from a re-analysis of the deposited data

How the results depend on the processing

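In the home-cage regional comparison the count of members called, 10, became 21 with DESeq2, 18 without the low-count filter, 21 with all 8 libraries in the fit, and 0 to 35 when 1 library was left out. In the exposed mice the count of 23 became 3 to 36 when 1 library was left out, and was between 20 and 26 otherwise. The counts fell when an mPFC library was left out and rose when an NAc library was left out: the spread then came from the NAc or the mPFC pair alone. Over all genes the home-cage count of 2262 became 3633 with DESeq2, 3211 without the filter, 4654 with all 8 libraries, and 0 to 8048 with 1 library left out; the exposed count of 6672 became 1133 to 9334. No regional direction of a named member changed. Pde10a in the home cage passed under 5 of its 8 alternatives. After cocaine and defeat no member passed under any alternative; over all genes, the defeat count of 127 became 94 with DESeq2, 168 without the filter, 5 with all 8 libraries and 58 to 238 with 1 library left out. Without the Gucy2d row (a minimum of 500 counts) 48 members remained.

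The NAc titles share the numbers 1 and 2 between groups, and no label says what a number marks. Deviations of the number 1 libraries from their group means correlated at 0.57 across 18783 genes, with 2 pairs only. With the replicate block, 0 members were called for cocaine and 0 for the difference between responses; 4 and 3 had an unadjusted p under 0.05, the smallest adjusted p being 0.228 and 0.435, and the counts over all genes were 38 and 3. DESeq2 called 4 and 2 genes. No paired analysis was possible in mPFC because its groups share no numbers in the labels.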
